A study of Mus musculus with 4 samples.

Results

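The interleukin receptor genes are the protein-coding rows of the count table whose symbol begins with Il, a number and r, without the antagonist gene Il1rn and with Il6st added, which encodes the gp130 chain. This rule reads names and annotation, not expression, and it found 43 of the 54532 genes in the table. These rows carry 41 symbols, since Il11ra2 is listed 3 times, on chromosome 4 and on 2 unplaced scaffolds. Bulk RNA-seq had been performed on purified alveolar macrophages (AMs) from the lungs of female wild-type (WT) mice, which the methods of the study give as young adults on a BALB/c background. The control group held 2 libraries from mice without 4T1 inoculation, and the tumor group held 2 from mice that had carried 4T1 for 2 weeks, a breast carcinoma line of the mouse that the study injects into the mammary fat pad. The study set out to ask how AMs change while the lung pre-metastatic niche (PMN) of breast cancer forms. The study describes its isolated lung AMs as CD45+ CD11b- CD11c+ SiglecF+ cells. Neither labels nor methods state whether a library came from 1 mouse or from several. The p-values below therefore measure only the spread between these libraries, which may be technical. The main fit also pools that spread over genes, with 2 residual degrees of freedom per gene but 26.2 in the test.

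Interleukin receptors sit in the cell membrane as assemblies of a chain that binds the cytokine and a chain, often shared, that carries the signal. The IL-1 family signals through MyD88 and the IRAK kinases, the receptors with the common gamma chain, the common beta chain or gp130 through JAK kinases and STAT proteins, and the IL-17 receptors through the adaptor Act1. A few members act as decoys that bind cytokine without signaling. In the lung, AMs are known to respond to IL-4, IL-13, IL-10 and IL-6, whereas receptors for IL-5, IL-33 and IL-18 are best known from eosinophils, basophils, mast cells and lymphocytes.

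The libraries held 16167147 to 19205737 counts, and scaling factors of the trimmed mean of M-values (TMM) lay between 0.977 and 1.02. A value of 3 counts was taken as the floor of detection, equal to 0.153 to 0.190 CPM (counts scaled to a common library size) after TMM scaling. The list of AM identity genes, which includes Marco, Chil3 and Fabp4, was abundant as a sum in every library, at 15575 and 15743 CPM in the controls and 12250 and 12449 CPM in the tumor libraries. Of these 14 genes, 11 were lower and 2 higher in tumor-bearing mice, and 1, Fabp4, fell by at least 2-fold. Markers of other leukocytes differed far more. All 5 eosinophil markers were higher (summed 0.373 and 0.506 CPM against 2712 and 2668 CPM), as were all 7 basophil and mast cell markers (2.29 and 2.02 CPM against 542 and 542 CPM) and all 11 neutrophil markers (47.0 and 47.3 CPM against 3245 and 3185 CPM). At or under 3 counts in both controls were 4 of the 5 eosinophil, 6 of the 7 basophil and mast cell and 6 of the 11 neutrophil markers, whereas the neutrophil gene Mmp8 had 714 and 602 counts there. The part of these transcripts in each receptor result was not tested. In bulk RNA, a change in the number of cells of a type and a change in RNA per cell cannot be told apart.

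Receptor transcripts were called higher more often than lower in the libraries from tumor-bearing mice. Of the 43 receptor genes, 30 passed the filter on low counts. By edgeR's quasi-likelihood test at an adjusted p under 0.05, 20 of the 30 (66.7%) differed between the groups, beside 53.8% of all 14256 genes tested. Higher in the tumor libraries were 14 (46.7%, against 29.0% of all genes) and lower were 6 (20.0%, against 24.8%). A rise of at least 2-fold was seen for 8 (26.7%, against 12.9%), namely Il1r2, Il5ra, Il18rap, Il1rl1, Il17rb, Il18r1, Il2rb and Il2ra. A fall of at least 2-fold was seen for 0, against 3.01% of all genes, and the count was also 0 at an unadjusted p under 0.05 and by DESeq2 and limma-voom, but without control replicate 1 Il20rb was called at -1.03 (adjusted p = 2.29e-06). The libraries of the groups did not overlap for 27 of the 30 (90.0%, against 75.1%). The median log2 fold change was 0.31, beside 0.018 for all genes, and the median size of the change was 0.54, beside 0.32. These counts cover the tested genes alone, and 6 of the 30 had under 10 counts in at least 1 library. Among them Il5ra, Il2ra, Il17rb, Il17rc and Il12rb1 passed the filter mainly through the tumor libraries. Scaling the libraries on the AM identity genes in place of TMM raised the median of all genes from 0.018 to 0.36. Beside 8195 higher and 1159 lower of all 14256 genes, the receptor calls then became 21 higher and 4 lower of the 30. The calls gained were Il1r1 (0.66, adjusted p = 0.00298), Il3ra (0.51), Il10rb (0.40), Il7r (0.42), Il2rg (0.25), Il17rc (1.23) and Il12rb1 (1.43), and those lost were Il1rl2 and Il11ra1.

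**Figure D1:**
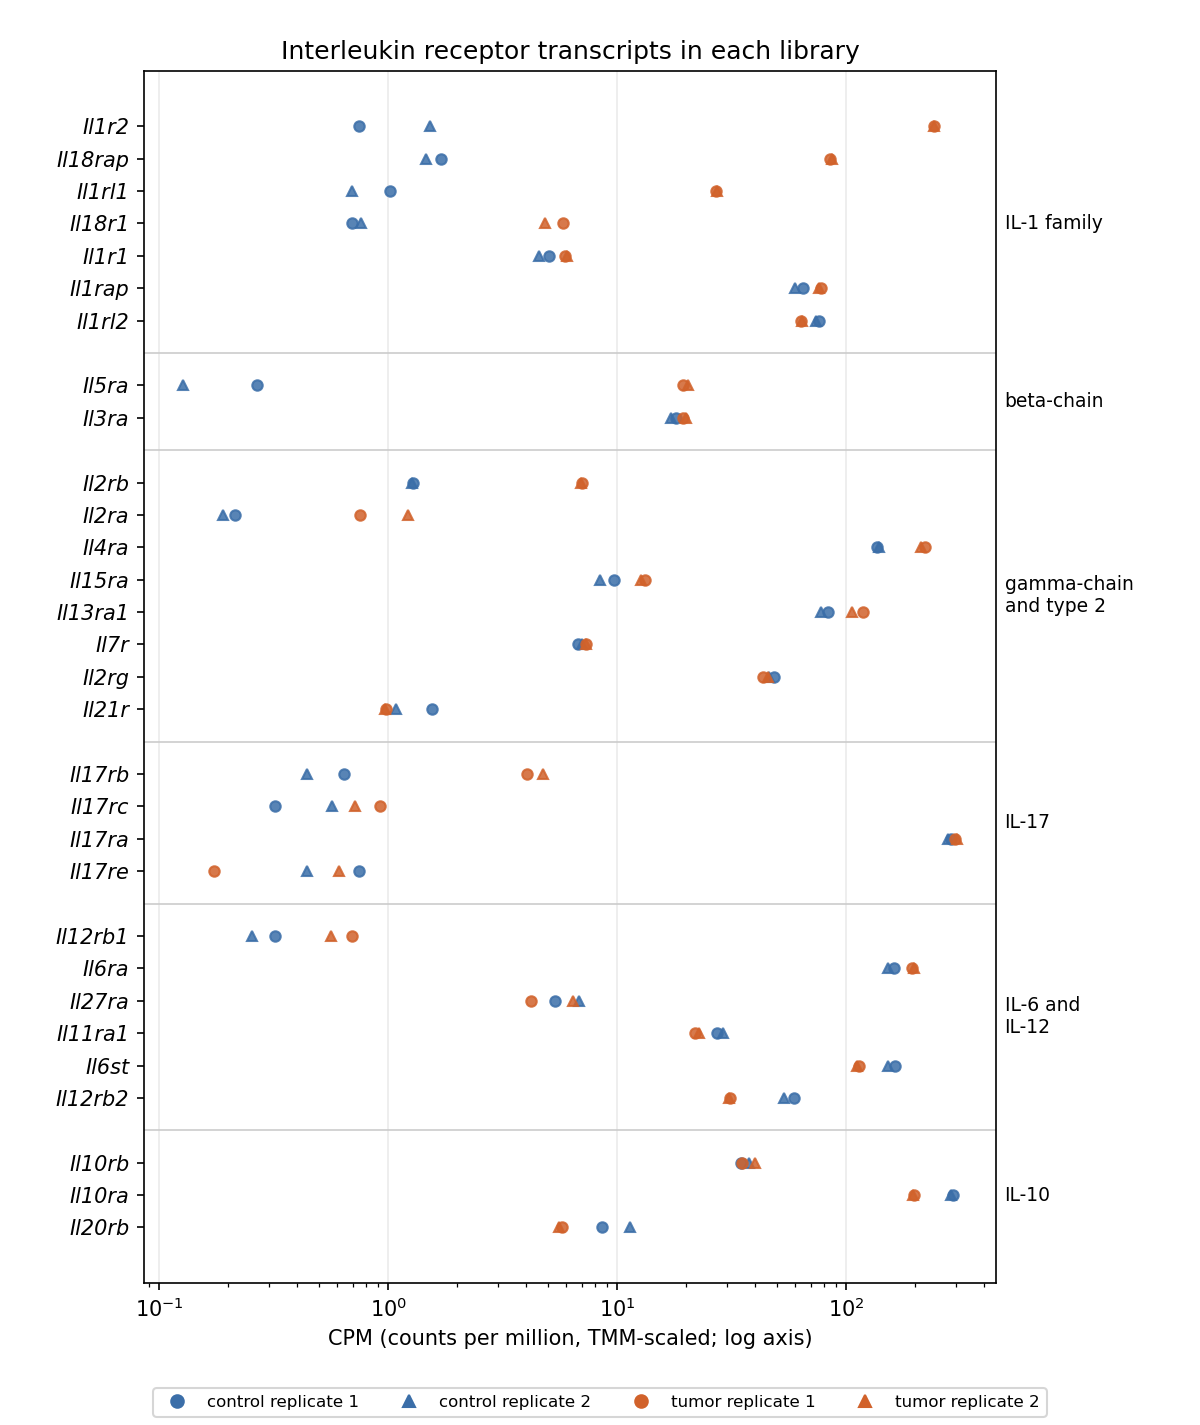
Level of each of the 30 tested interleukin receptor genes in each library, in CPM on a log axis, grouped by receptor family, with circles and triangles for replicates 1 and 2. Il1r2, Il18rap, Il1rl1 and Il5ra lay between 0.127 and 1.70 CPM in the controls and between 19.4 and 242 CPM in the tumor libraries, while most abundant receptors moved little on this axis.

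**Figure D2:**
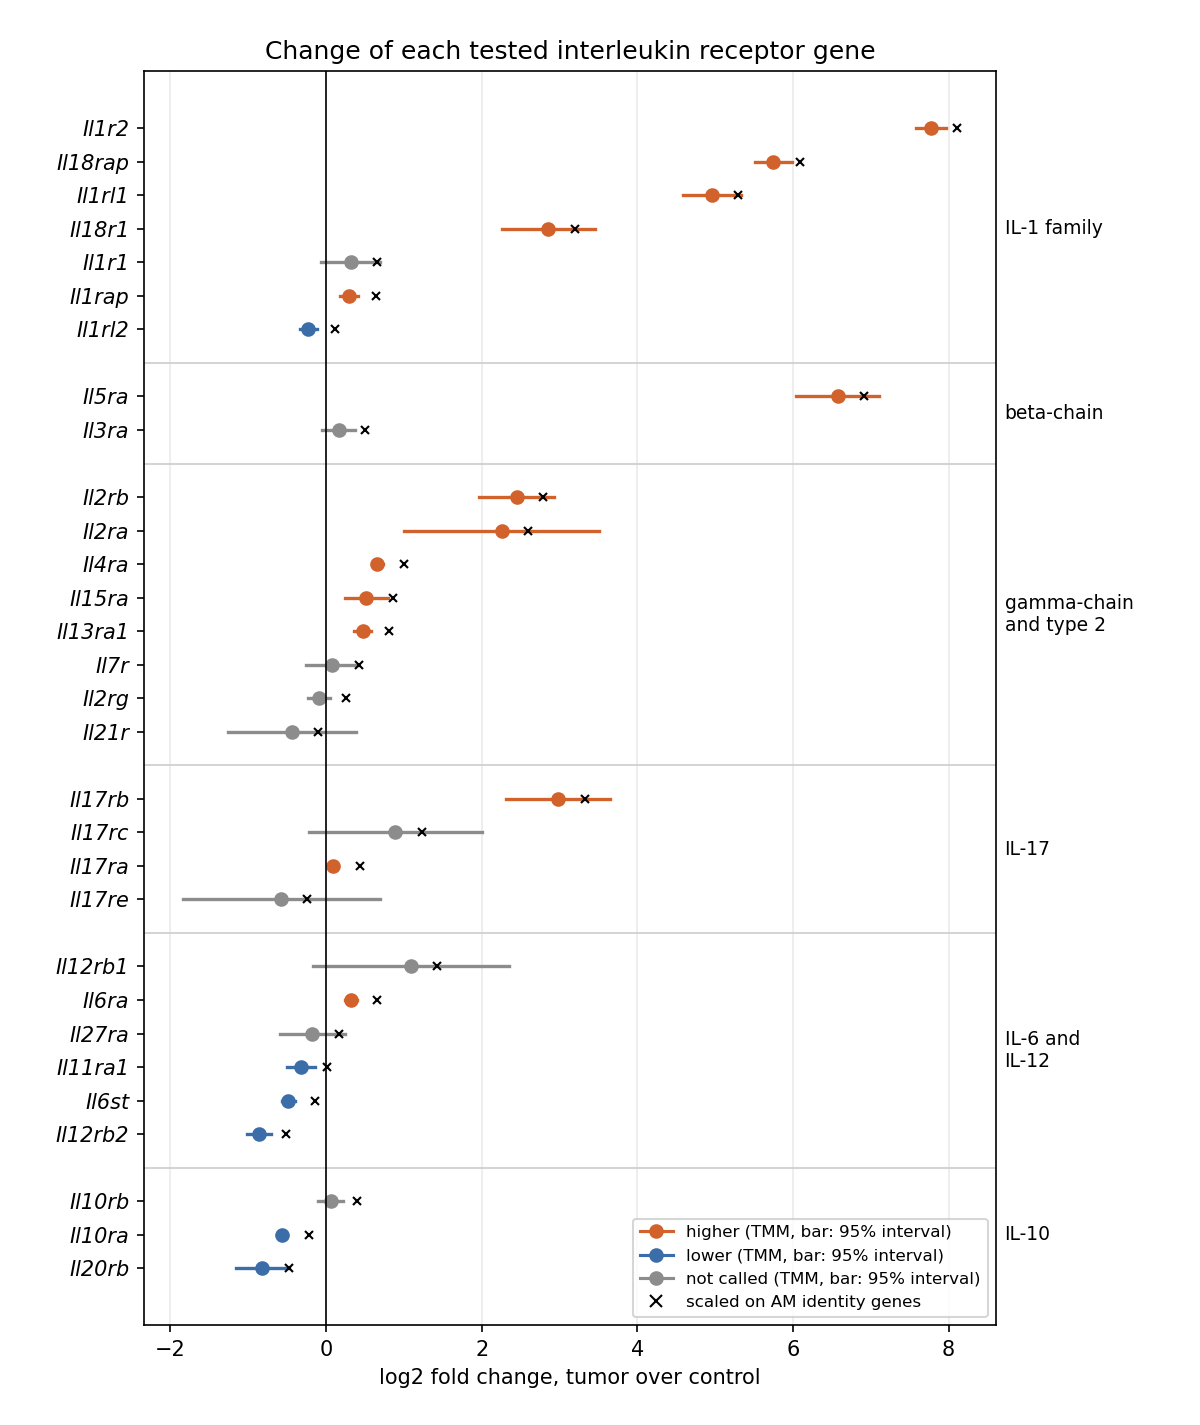
Log2 fold change (tumor over control) of the 30 tested genes with 95% intervals from the edgeR fit, colored by call, with crosses for the value under scaling on the AM identity genes. The 8 rises of at least 2-fold lie to the right of a log2 value of 1, and no gene called lower lies to the left of -1.

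The IL-1 receptor family held 4 of the 8 rises of at least 2-fold. Il1r2 encodes the decoy receptor for IL-1, which binds the cytokine without passing on a signal and is known from neutrophils. It had 14 and 24 counts in the controls and 4191 and 4745 in the tumor libraries, or 1.13 ± 0.546 against 242 ± 0.135 CPM (SD, n = 2). All tumor values lay far above the controls, with a log2 fold change of 7.77 ± 0.0939 (SE), 218-fold (adjusted p = 1.99e-30). Gm16894, an antisense gene overlapping Il1r2, had 1 and 0 against 63 and 79 counts, and Gm37347, a tentative transcript on the same strand, had 2 and 1 against 328 and 415. Since the strandedness of counting is not given in the sources used here, reads of the antisense gene cannot be told apart from those of Il1r2. The part of either overlapping gene in the Il1r2 counts was not tested.

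IL-18 signals through Il18r1, which binds it, and Il18rap, the accessory chain that completes the signaling pair. Il18rap had 32 and 23 counts in the controls and 1476 and 1697 in the tumor libraries, or 1.58 ± 0.176 against 85.8 ± 0.884 CPM, a log2 fold change of 5.75 ± 0.114 (53.7-fold, adjusted p = 2.21e-25). Il18r1 had 13 and 12 against 100 and 95 counts, or 0.726 ± 0.0472 against 5.30 ± 0.659 CPM, and rose by 2.86 ± 0.289 on the log2 scale (7.25-fold, adjusted p = 1.99e-09). The 2 chains thus moved in the same direction but not by the same amount.

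Il1rl1 encodes ST2, the IL-33 receptor, made as a membrane form and as a soluble decoy that counts per gene cannot separate. It had 19 and 11 counts in the controls and 467 and 536 in the tumor libraries, or 0.854 ± 0.224 against 27.1 ± 0.247 CPM, and rose by 4.96 ± 0.181 on the log2 scale (31.0-fold, adjusted p = 3.38e-19). The remaining chains of the family moved far less. Il1rap, the accessory chain that Il1r1, Il1rl1 and Il1rl2 all need to signal, rose by 0.30 ± 0.056 (adjusted p = 4.71e-05). Il1r1, the signaling IL-1 receptor, had 94 and 72 against 102 and 119 counts, or 4.78 ± 0.320 against 5.97 ± 0.123 CPM, and its log2 fold change of 0.32 ± 0.185 missed the threshold (adjusted p = 0.155), with a 95% interval from -0.06 to 0.70, though not under scaling on the AM identity genes. Il1rl2, the IL-36 receptor, fell by 0.23 on the log2 scale (SE 0.0539, adjusted p = 0.000728), and this call was lost under scaling on the AM identity genes, where it was 0.11 (adjusted p = 0.0751).

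Il1r2, Il1r1, Il1rl2, Il1rl1, Il18r1 and Il18rap lie in this order on the plus strand of chromosome 1, between chr1:40074079-40125231 for Il1r2 and chr1:40515362-40551705 for Il18rap (build GRCm38). Large rises were not shared along the whole cluster. Il1r1 and Il1rl2 lie between Il1r2 and Il1rl1, and their log2 fold changes stood at 0.32 and -0.23 beside 7.77 and 4.96 for those neighbours. Il18r1 starts 136 bases after the annotated end of Il1rl1. Outside the cluster, the log2 fold change was 0.12 for Map4k4 on the Il1r2 side, and -0.28 for Slc9a4 and -0.62 for Slc9a2 on the Il18rap side, and under scaling on the AM identity genes these were 0.47, 0.064 (not called) and -0.28. Mfsd9, beyond Slc9a2, went the other way at 0.49 (adjusted p = 0.166), and was at 0.83 (adjusted p = 0.0157) under that scaling.

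**Figure D3:**
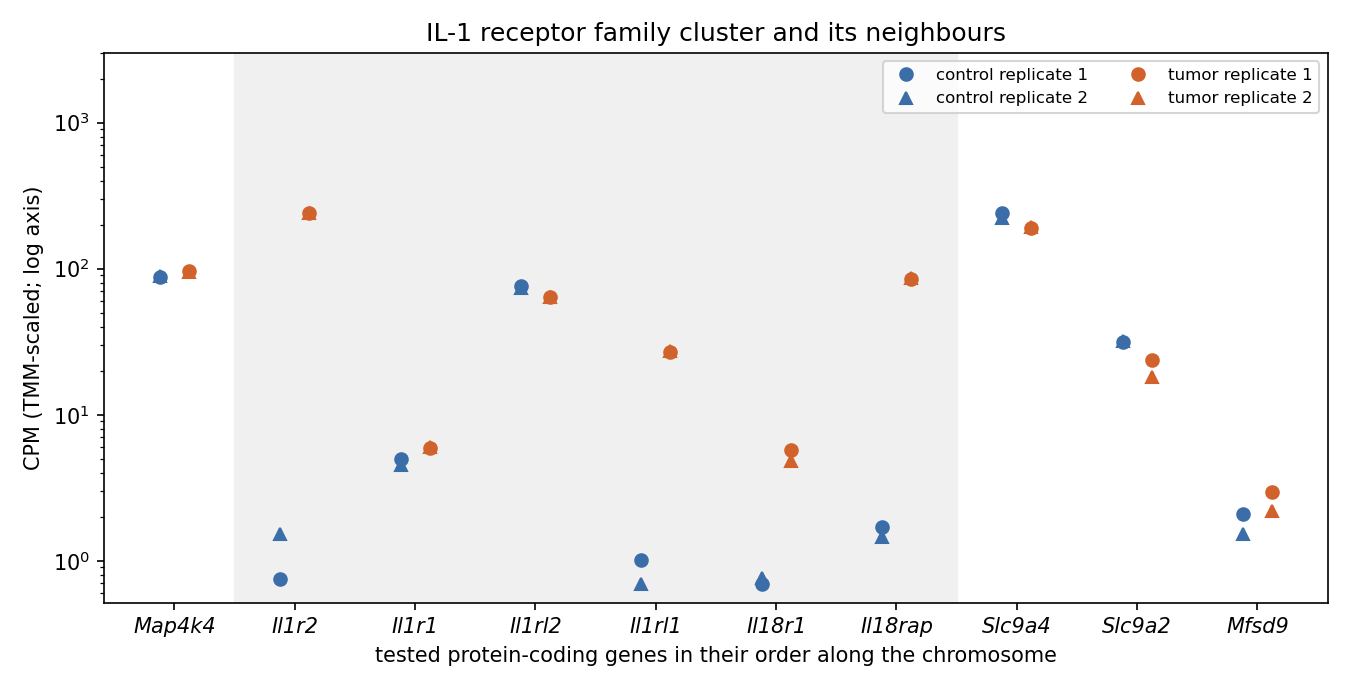
Level in each library, in CPM on a log axis, of the tested protein-coding genes in their order along chromosome 1, with the IL-1 receptor cluster shaded and circles and triangles for replicates 1 and 2. The tumor libraries stand far above the controls for Il1r2, Il1rl1, Il18r1 and Il18rap, whereas both groups lie close together for Il1r1, Il1rl2 and the genes outside the cluster.

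The 250 bases before the start site were read for members of the cluster that rose (Il1rl1, Il18rap), for their neighbours that did not (Il1r1, Il1rl2) and for Il5ra, the largest rise elsewhere. RefSeq promoter windows on GRCm38.p6 matched 34 of the 41 receptor symbols, and only windows free of annotated exons are shown, so Il1r2 and Il18r1 are not. Capitals mark matches on either strand to GATAA (read by GATA factors), TTCNNNGAA (STAT factors), TTGCNNAA (C/EBP factors) and GCGTG (AHR with ARNT). The windows lie at chr1:40429320-40429569 (Il1rl1), chr1:40515112-40515361 (Il18rap), chr1:40224830-40225079 (Il1r1, the first of its starts) and chr1:40324339-40324588 (Il1rl2), all on the plus strand, and at chr6:106749038-106749287 on the minus strand (Il5ra), and each is written 5′ to 3′ along its gene.
Il1rl1: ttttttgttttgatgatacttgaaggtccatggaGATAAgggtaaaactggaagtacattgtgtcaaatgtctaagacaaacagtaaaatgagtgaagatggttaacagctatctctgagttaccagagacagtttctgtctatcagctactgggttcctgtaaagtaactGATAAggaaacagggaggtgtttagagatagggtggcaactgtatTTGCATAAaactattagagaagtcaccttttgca
Il18rap: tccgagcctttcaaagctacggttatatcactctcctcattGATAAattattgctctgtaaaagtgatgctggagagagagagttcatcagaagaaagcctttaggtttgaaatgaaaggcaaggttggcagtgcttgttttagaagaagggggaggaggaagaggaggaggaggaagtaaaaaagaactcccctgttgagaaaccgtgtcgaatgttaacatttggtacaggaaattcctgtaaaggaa
Il5ra: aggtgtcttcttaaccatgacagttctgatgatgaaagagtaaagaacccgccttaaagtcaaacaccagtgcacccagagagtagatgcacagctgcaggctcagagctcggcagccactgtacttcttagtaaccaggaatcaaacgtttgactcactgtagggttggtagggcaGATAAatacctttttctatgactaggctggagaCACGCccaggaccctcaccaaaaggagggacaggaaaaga
Il1r1: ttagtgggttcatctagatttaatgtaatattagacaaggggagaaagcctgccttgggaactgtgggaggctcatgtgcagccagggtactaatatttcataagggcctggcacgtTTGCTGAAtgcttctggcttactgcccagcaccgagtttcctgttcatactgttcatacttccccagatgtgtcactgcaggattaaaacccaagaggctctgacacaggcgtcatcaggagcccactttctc
Il1rl2: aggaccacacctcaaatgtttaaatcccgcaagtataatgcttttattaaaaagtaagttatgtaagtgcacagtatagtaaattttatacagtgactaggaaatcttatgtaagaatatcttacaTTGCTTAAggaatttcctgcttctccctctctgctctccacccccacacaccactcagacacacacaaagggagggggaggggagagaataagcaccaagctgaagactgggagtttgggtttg
The GATAA motif stood 216 and 79 bases before the start of Il1rl1, 209 before that of Il18rap and 73 before that of Il5ra, and it was not in the windows shown for Il1r1 and Il1rl2. Among the risers of the cluster that are not shown, Il1r2 held GATAA 86 and GCGTG 43 and 27 bases before its start. Il18r1, which rose 7.25-fold, held GATAA in none of its windows. TTGCNNAA stood 34 bases before the start of Il1rl1, 133 before that of Il1r1 and 124 before that of Il1rl2. GCGTG stood 40 bases before the start of Il5ra, 125 before a later start of Il1r1 and 154 before a later start of Il1rl1, whose windows are not shown. These are short motifs, and GATAA was found in 22.6% and GCGTG in 28.2% of all 32851 windows, against 12 and 13 of the 40 receptor windows. TTCNNNGAA was in 7.02% of all windows and 5 of the 40 (12.5%), and TTGCNNAA in 9.56% and 8 of the 40 (20.0%). Of the 7 receptor genes with a window that rose at least 2-fold, 4 held GATAA, as did 7 of the 27 others, and 4 and 9 held GCGTG. A match describes letters in a window and not the binding of a factor.

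Il5ra encodes the chain that binds IL-5, the cytokine that sustains eosinophils, and it pairs with the common beta chain. It had 5 and 2 counts in the controls, at the edge of detection, and 337 and 401 in the tumor libraries, or 0.196 ± 0.0989 against 19.9 ± 0.689 CPM. The log2 fold change was 6.57 ± 0.260 (adjusted p = 2.1e-18), and the ratio of the summed counts was 98.5 with a 95% counting interval from 47.6 to 246. Without control replicate 1 the log2 fold change was 7.21, with only 2 counts left in the control. Il3ra, the IL-3 binding chain that shares the same partner, had a log2 fold change of 0.17 ± 0.103 (adjusted p = 0.181). The shared partners lay outside the name rule and fell, Csf2rb by 0.49 and Csf2rb2 by 0.68 on the log2 scale. These paralogs are nearly identical, and their counts may be split. All 5 eosinophil markers were high in both tumor libraries as well, and 4 of the 5 (Prg2, Epx, Prg3, Ear6) were at or under 3 counts in both controls. The same held in the controls for 6 of the 7 basophil and mast cell, 6 of the 11 neutrophil and 9 of the 10 hepatocyte markers. The part of any of these cells in the rise of Il5ra was not tested.

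The receptors for IL-4 and IL-13, through which macrophages take up an alternatively activated state, were abundant in both groups and rose moderately. Il4ra, the signaling chain shared by the type I and type II receptors, had 2555 and 2189 counts in the controls and 3824 and 4184 in the tumor libraries, or 137 ± 1.69 against 217 ± 5.36 CPM, and rose by 0.66 ± 0.0360 on the log2 scale (1.58-fold, adjusted p = 3.61e-15). Il13ra1, which completes the type II receptor, had 1562 and 1229 against 2045 and 2079 counts, or 80.5 ± 3.86 against 112 ± 8.57 CPM, a log2 fold change of 0.47 ± 0.0525 (adjusted p = 1.25e-08). Il2rg, the common gamma chain of the type I receptor, had 903 and 729 against 747 and 894 counts, or 47.1 ± 1.40 against 44.3 ± 1.71 CPM. Its log2 fold change of -0.089 ± 0.0683 missed the threshold (adjusted p = 0.283), with a 95% interval from -0.23 to 0.05, and under scaling on the AM identity genes it was 0.25 (adjusted p = 0.00233). The controls did not overlap the tumor libraries for Il4ra or Il13ra1, and both calls held under every alternative tried.

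Of the chains that bind IL-2 and IL-15 together with Il2rg, Il2rb, Il2ra and Il15ra rose from low levels. Il2rb, the signaling chain that IL-2 and IL-15 share, had 24 and 20 counts in the controls and 122 and 136 in the tumor libraries, or 1.27 ± 0.00928 against 6.98 ± 0.0805 CPM, and rose by 2.45 ± 0.234 on the log2 scale (5.46-fold, adjusted p = 6.4e-10). Il2ra, the chain that gives high affinity for IL-2, had 4 and 3 against 13 and 24 counts, or 0.201 ± 0.0165 against 0.986 ± 0.334 CPM, a log2 fold change of 2.26 ± 0.608 (adjusted p = 0.00253). Its call was lost without either control replicate (adjusted p = 0.0579 and 0.0531) and without tumor replicate 2 (adjusted p = 0.0878). Il15ra, which presents IL-15, rose by 0.52 ± 0.135 (adjusted p = 0.00185). Il7r, the IL-7 receptor of lymphoid cells, and Il21r, the IL-21 receptor, missed the threshold at 0.078 (adjusted p = 0.713) and -0.44 (adjusted p = 0.375). Of the NK cell markers, Gzma and Prf1 passed the filter and both were higher, with a summed level of the list of 1.44 and 1.90 against 5.77 and 6.16 CPM, and of the 7 tested T cell and innate lymphoid markers 4 were higher and 1 lower (summed 53.9 and 57.1 against 62.3 and 59.8 CPM). Their part in the rise of Il2rb was not tested.

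Il17ra, the chain common to the IL-17 receptors, ranked second among the receptor genes per length in the controls, with 5383 and 4402 counts in the controls and 5152 and 5997 in the tumor libraries, or 283 ± 5.83 against 301 ± 5.74 CPM. Its log2 fold change of 0.091 ± 0.0300 passed the threshold (adjusted p = 0.0117), but not without the filter on low counts (adjusted p = 0.0788), by DESeq2 (0.108), without control replicate 2 (0.286) or without tumor replicate 2 (0.132). Il17rb, which binds IL-25 and is known from innate lymphoid cells, had 12 and 7 against 70 and 93 counts, or 0.541 ± 0.139 against 4.39 ± 0.493 CPM, and rose by 2.99 ± 0.325 (7.92-fold, adjusted p = 7.91e-09). It overlaps Actr8 on the opposite strand, which had 471 and 412 against 547 and 490 counts. Il17rc, the partner of Il17ra for IL-17A, had 6 and 9 against 16 and 14 counts (log2 fold change 0.89, adjusted p = 0.172). Il17re, the IL-17C receptor, had 14 and 7 against 3 and 12 counts with overlapping groups (-0.58, adjusted p = 0.454).

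In the IL-6 and IL-12 group the chains moved in opposite directions. Il6ra, which binds IL-6, had 3030 and 2405 counts in the controls and 3367 and 3865 in the tumor libraries, or 157 ± 6.54 against 195 ± 1.80 CPM, and rose by 0.32 ± 0.0368 on the log2 scale (adjusted p = 2.77e-08). Il6st, the gp130 chain that passes on the signals of IL-6, IL-11 and IL-27, had 3051 and 2402 against 1971 and 2186 counts, or 157 ± 7.47 against 112 ± 1.70 CPM, and fell by 0.49 (SE 0.0415, adjusted p = 6.52e-11). Under scaling on the AM identity genes this fall was smaller, at -0.14 (adjusted p = 0.0072). Il12rb2, the signaling chain for IL-12, had 1109 and 841 against 539 and 607 counts and fell by 0.86 (SE 0.0731, adjusted p = 5.79e-11), the largest fall of any called member with all libraries. Without control replicate 1 its value was -0.79, beside -1.03 for Il20rb. Under scaling on the AM identity genes Il12rb2 was at -0.52 (adjusted p = 1.04e-06). It overlaps the opposite-strand gene Serbp1, with 5318 and 4294 against 4570 and 5186 counts, and reads shared with Serbp1 cannot be told apart here. Il11ra1, the IL-11 receptor, fell by 0.32 (SE 0.0892, adjusted p = 0.00309), but under scaling on the AM identity genes its value was 0.018 (adjusted p = 0.870), and it overlaps other genes, among them Galt and Dctn3. Il27ra, the IL-27 receptor, and Il12rb1, the partner of Il12rb2, missed the threshold at -0.18 (adjusted p = 0.491) and 1.09 (adjusted p = 0.139, 6 and 4 against 12 and 11 counts). Without tumor replicate 2, Il27ra was called lower at -0.52 (adjusted p = 0.0465).

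The IL-10 receptor chains separated as well. Il10ra, which binds IL-10 and restrains macrophage activation, had 5462 and 4550 counts in the controls and 3418 and 3832 in the tumor libraries, or 289 ± 2.19 against 196 ± 1.47 CPM, and fell by 0.56 on the log2 scale (SE 0.0312, adjusted p = 4.87e-15). Under scaling on the AM identity genes the fall was smaller, at -0.22, and still called (adjusted p = 4.67e-06). Il10rb, the second chain, which IL-22 and the lambda interferons also use, had 651 and 594 against 609 and 783 counts, or 36.1 ± 2.05 against 37.5 ± 3.35 CPM, and its groups overlapped (log2 fold change 0.058 ± 0.0802, adjusted p = 0.569, 95% interval -0.11 to 0.22). Il20rb, a chain of the IL-20 and IL-24 receptors, fell by 0.82 (SE 0.167, adjusted p = 0.000144), and under scaling on the AM identity genes it was at -0.48 (adjusted p = 0.0147).

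Ratios of chains within a library do not depend on how libraries are scaled. They were taken between levels per length (FPKM, which is CPM per kilobase of gene length) and are given as values, and no test of them was run. Decoy to signaling IL-1 receptor (Il1r2 over Il1r1) stood at 0.497 and 1.11 in the controls and at 137 and 133 in the tumor libraries. ST2 over its accessory chain (Il1rl1 over Il1rap) went from 0.0258 and 0.0192 to 0.573 and 0.593, so the accessory chain stayed the more abundant. Il18rap over Il18r1 was 1.76 and 1.37, then 10.5 and 12.7. For the IL-5 and IL-3 binding chains (Il5ra over Il3ra) it was 0.0123 and 0.00615, then 0.835 and 0.847. Among chains that were abundant throughout, Il6st over Il6ra went from 0.784 and 0.778 to 0.456 and 0.440, and Il4ra over Il2rg from 1.13 and 1.19 to 2.04 and 1.86. Il4ra over Il13ra1 shifted less, from 1.01 and 1.10 to 1.16 and 1.24.

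**Figure D4:**
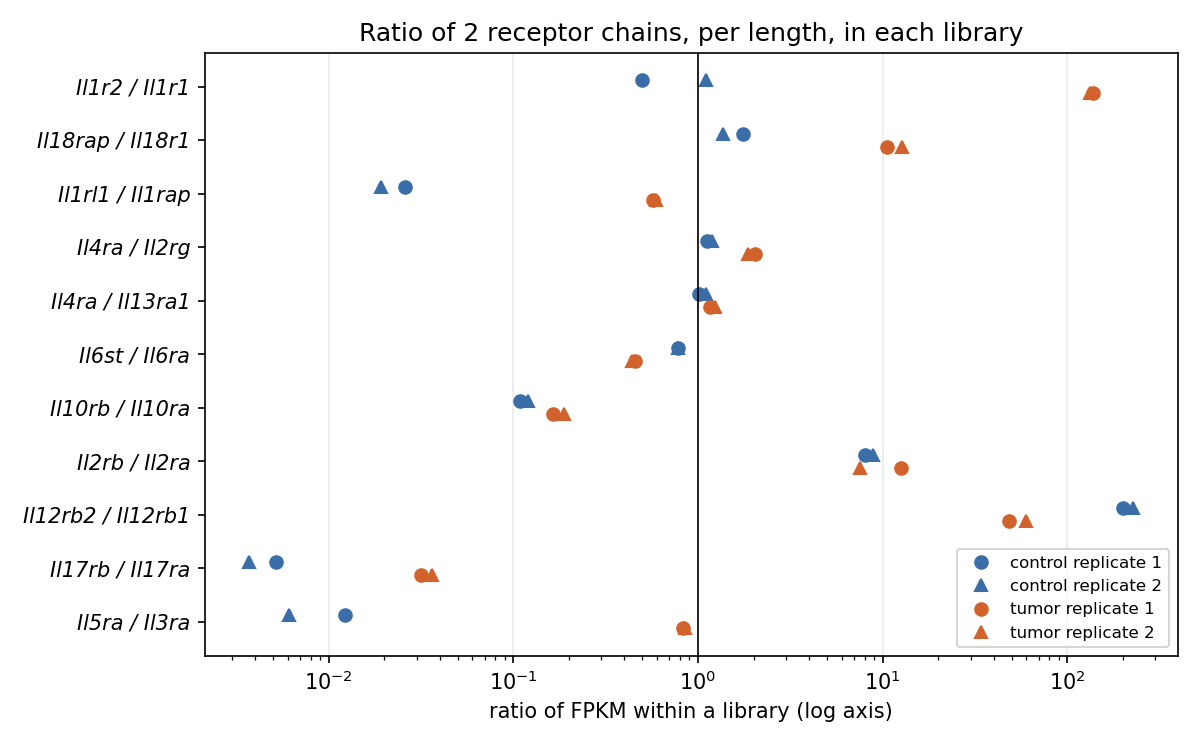
Ratio of levels per length (FPKM) between receptor chains in each library, on a log axis, with a line at a ratio of 1. Il1r2 over Il1r1 lay at 0.497 and 1.11 in the controls and at 137 and 133 in the tumor libraries, whereas Il4ra over Il13ra1 lay between 1.01 and 1.24 in all libraries.

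The make-up of the receptor transcripts changed accordingly. As a share of the summed level per length of all receptor genes, Il10ra led in the controls (29.8% and 30.1%) and was second in the tumor libraries (13.5% and 13.4%). Il1r2 held 0.140% and 0.291% in the controls and led the tumor libraries at 30.4% and 30.4%. The summed level of the receptor genes was 1494 and 1451 CPM in the controls and 1863 and 1861 CPM in the tumor libraries, and without Il1r2 it was 1493 and 1450 against 1621 and 1620 CPM.

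The remaining 13 rows were not tested. At 0 counts in all libraries, which allows at most the floor given above, were Il1rapl1 and Il1rapl2 (brain relatives of Il1rap), Il13ra2 (the IL-13 decoy), Il23r (the IL-23 receptor) and the 2 scaffold copies of Il11ra2. No library had more than 10 counts for the others. Il9r, the IL-9 receptor, had 2 and 7 against 4 and 10 counts, and Il22ra2, the soluble IL-22 decoy, had 1 and 1 against 4 and 4. The chromosome 4 copy of Il11ra2, a near copy of Il11ra1 with which reads may be split, had 1 and 10 against 2 and 0. Il31ra, Il17rd, Il20ra and Il22ra1 had 0 to 4 counts.

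Genes of the ligands, partner chains and signal proteins were read from lists by name. Of 36 ligand genes in the table, 17 were tested, with 7 higher, 6 lower and 4 not called. Of the 7, Il12a and Il13 were at or under 3 counts in both controls, so that their rises are bounds (at least 11.5-fold for Il12a, at least 5.09-fold for Il13). Above the floor, the rises were largest in Il1f9 (IL-36 gamma, log2 fold change 5.93), Il4 (4.46) and Il12b (2.80), and the largest falls in Il23a (-1.67), Il1a (-1.65) and Il1rn (-1.58). In the IL-1 system, Il1r2 rose while both agonist genes fell, Il1b by 0.90 on the log2 scale, and so did the antagonist gene Il1rn. Il33, the ligand of ST2, had 2 and 4 against 1 and 12 counts, Il5 had 0 and 0 against 1 and 0, and Il18 fell by 0.44 while both chains of its receptor rose. Of 11 partner chains and relatives, 9 were tested and all were called, 4 higher and 5 lower. Lifr (2.25), Sigirr (1.42) and Crlf2 (0.32) rose, Ifnlr1 was at least 6.70-fold above control libraries with 0 counts, and the largest falls were in Lif (-1.86), Csf2rb2 and Csf2rb. Under scaling on the AM identity genes these were 5 higher and 3 lower, with Csf2ra no longer called (-0.024) and Osm higher (0.096). Of 22 signal proteins tested, 11 were higher, led by Jak2 (1.32), Socs1 (1.31) and Jak3 (1.30), and 7 were lower, among them Irak2 (-0.53) and Myd88 (-0.21). Under scaling on the AM identity genes these signal proteins were 19 higher and 1 lower, and Myd88 turned positive (0.13). Beside these lists, 29.0% of all genes tested were higher and 24.8% lower, and under that scaling 8195 and 1159 of 14256 were.

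**Figure D5:**
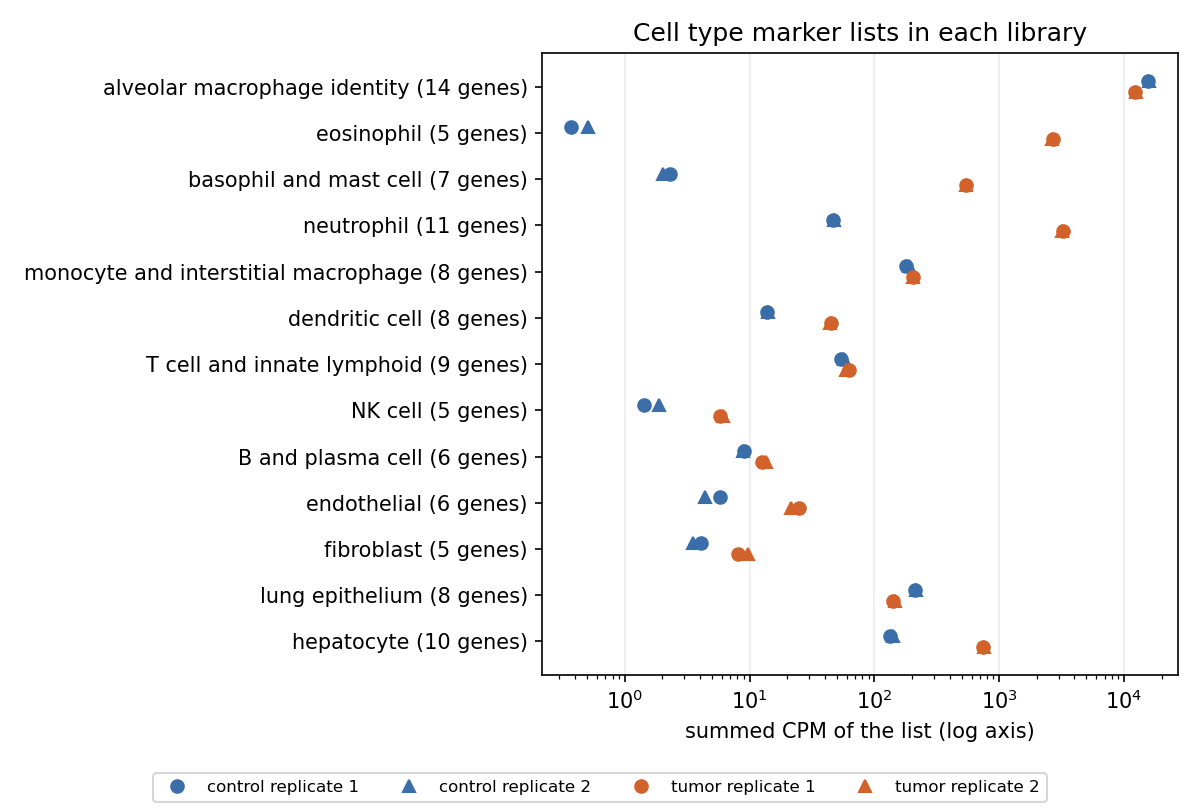
Summed level of each cell type marker list in each library, in CPM on a log axis, with circles and triangles for replicates 1 and 2. The eosinophil list went from 0.373 and 0.506 CPM to 2712 and 2668 CPM, while the AM identity list lay between 12250 and 15743 CPM in all libraries.

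The lists of other cells moved with the receptor results to differing degrees. Besides the granulocyte lists, 4 of 8 dendritic cell markers were higher and 1 lower (summed 13.8 and 14.0 against 45.0 and 43.7 CPM), and of the 8 monocyte and interstitial macrophage markers 3 were higher and 4 lower. Of 6 B and plasma cell markers 4 were higher and 1 lower. Higher among endothelial markers were 2 of 4 tested and among fibroblast markers 4 of 5. Lung epithelial markers were 2 higher and 4 lower of 7 tested (4 and 2 under scaling on the AM identity genes), and hepatocyte markers 9 higher and 1 lower of 10 (summed 133 and 141 against 741 and 757 CPM, with 9 of the 10 at or under 3 counts in both controls). Basophil and mast cell markers at 0 counts in both controls were Mcpt8, Fcer1a, Ms4a2 and Prss34, and neutrophil markers Elane and Padi4 were as well, while every marker of these lists was above the floor in both tumor libraries. The gate given for AMs takes CD11b- SiglecF+ cells. The part of eosinophils, basophils, mast cells, neutrophils and the other listed cells in the rises of Il1r2, Il18rap, Il1rl1, Il5ra and Il17rb was not tested.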

How the data were processed

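AMs were purified by the authors, and total RNA libraries were made with a NEBNext Ultra kit per the labels. The authors aligned reads with HISAT2 2.0.5 (submitters' processing notes) and, per the methods of the study, used featureCounts for counts per gene. The values the authors deposited here are raw counts without normalization, and the FPKM that they also derived was not used. Genome build, annotation and strandedness are not given in the sources used here, but 54495 of 54532 gene identifiers were in GENCODE M21 (GRCm38), with 98.3% at identical coordinates. Groups came from the titles. Library totals were 16167147 to 19205737 counts, and the replicates of a group differed by more than sampling noise.

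The counts were fitted with edgeR 4.0.16 under R 4.3.3 (filterByExpr, minimum count 10, 14256 genes kept, TMM, glmQLFit and glmQLFTest, group as the single term), with Benjamini-Hochberg adjustment over all genes and a threshold of 0.05. The SE is the log2 fold change over the square root of F. FPKM for ratios was computed from counts, gene length and TMM-scaled totals. Where both controls held at most 3 counts, a fold is a bound from the lower tumor CPM over the higher control floor. Counting intervals and floors cover counting error only. The fit was tested on simulated data in which few genes changed, whereas 53.8% of the tested genes were called here. Alternatives were DESeq2 1.42.0 (test and size factors), limma 3.58.1 (voom), total counts, scaling on AM identity genes, other filters, protein-coding genes alone, a replicate block and leaving out each library. Every receptor gene is named, with full values for those called at least 2-fold and for Il1r1, Il4ra, Il13ra1, Il2rg, Il6ra, Il6st, Il10ra, Il10rb and Il17ra irrespective of value. From each pathway list the 3 largest rises and falls are named, except for an item that is not reported here, and others named there (Il1b, Il18, Il33, Il5, Csf2ra, Osm) were chosen after their values were seen. The receptor genes and lists were chosen with earlier results of these data known.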

Additional observations from a re-analysis of the deposited data

How the results depend on the processing

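Of the 20 called receptor genes, 16 kept direction and call under every alternative that could be fitted, and Il17ra, Il2ra, Il1rl2 and Il11ra1 did not. Scaling on the AM identity genes gave 8195 genes higher and 1159 lower in place of 4136 and 3535, and turned Il1rl2 (0.11), Il2rg (0.25), Il11ra1 (0.018) and Il27ra (0.16) positive on the log2 scale. The cause was not tested. A log2 fold change of at least 1 left 1839 genes higher and 429 lower, and 8 and 0 receptor genes. Leaving out each library in turn gave 3510 to 3956 genes higher, 3005 to 3514 lower, 12 to 14 receptor genes higher and 6 to 7 lower, the lone library being assumed to vary like the other group. It gave log2 fold changes from -0.042 to 0.14 for Il10rb (negative without control replicate 1, at -0.012, and without tumor replicate 2), from -0.52 to 0.080 for Il27ra and from -1.77 to 0.0096 for Il17re (both positive without tumor replicate 1), against a value of the other sign with all libraries. The replicate block gave 4021 genes higher and 3425 lower and 14 and 6 receptor genes, and it changed no receptor call. Libraries of the same number did not deviate together (correlation -0.0055 over all genes and 0.042 over the 9560 genes that averaged 100 counts or more). With 2 libraries per group this is a single comparison, and it cannot show whether they shared a preparation. Depth limits the genes under 10 counts.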
